A study of Homo sapiens with 6 samples.

Results

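Footprints of whole ribosomes (80S) were compared between stop codons and the coding sequence before them in HEK293T, an established human line derived from embryonic kidney. The members were the 2 unselected 80S libraries, out of 6 libraries in the series, chosen by their labels, and the measurement was their footprints around stop codons. The 4 libraries used came from cells grown for 48 h at 37 °C and fixed with 0.3% formaldehyde for 5 min. The 80S libraries and the 2 unselected 40S libraries, which hold the small subunit and serve for comparison, were made by RNase I digestion after lysis and separation of the 2 fractions, with no antibody. A library of 40S complexes bound to the initiation factor subunit eIF3b and an mRNA library make up the rest and were not used here.

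A ribosome that reaches a stop codon does not bring in another tRNA. The release factors eRF1 and eRF3 bind instead and free the finished protein, and the ATPase ABCE1 then helps to take the large subunit off, which leaves a small subunit on the mRNA that must be recycled in turn. A translating ribosome moves 1 codon at a time, so the ends of its footprints repeat every 3 nt, and both ends of the protected RNA report where the ribosome stood. Footprint length adds to this, since shorter footprints arise when part of the RNA at an edge was open to the nuclease, and in many systems they also mark ribosomes with an empty decoding site.

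The deposited values are counts of footprint 5′ ends, summed over all mRNAs, by position from -80 to +30 relative to the stop codon and by footprint length from 18 to 98 nt. They numbered 247399 in 80S 1 and 166059 in 80S 2, against 51176 in 40S 1 and 13998 in 40S 2. They hold no genes, so a few abundant mRNAs could set the averages. The sources do not say which base of the stop codon is position 0. In the 80S libraries the fullest reading frame of a length upstream of the stop codon was that found after the start codon for 27 of 33 lengths in 80S 1 and 15 of 20 in 80S 2, but the codon base itself was not tested. The labelled fraction could be checked only by where the footprints lay: 80S libraries had 3.97% and 1.08% of their 5′ ends at 0 to +30, past the stop codon, against 23.4% and 14.1% in the 40S libraries. Per the labels, 80S 1 and 40S 1 were sequenced as paired ends with read 1 used, so differences between the 2 numbers go with the read layout and cannot be told apart from it. Whether libraries 1 and 2 were separate cultures is not in the labels, and p-values then measure only a spread that may be technical.

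The first question was whether whole ribosomes were denser at stop codons than in the coding sequence before them. Ribosomes lay at about the density of the coding sequence until their 5′ ends were 16 nt before the stop codon, were slightly denser just ahead of that point, and became sparse within a few nucleotides after it. At -25 to -12 the 80S 1 library had 2983 counts per position, against 3444 at -80 to -26 upstream, a ratio of 0.866 (exact 95% binomial interval 0.857 to 0.875). The 80S 2 library had 2206 counts per position at -25 to -12, against 2380 upstream, a ratio of 0.927 (0.916 to 0.939). Both libraries were below 1, with a mean of 0.897 ± 0.0431 (SD, n = 2), and an exact sign-flip permutation over the libraries, two-sided, gave p = 0.5, below which 2 libraries cannot go. All intervals cover counting error only, since PCR copies of a molecule could not be recognised.

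That ratio below 1 mixed a rise with a fall. Over whole codons ahead of the fall, from -27 to -16, the ratio to the sequence at -80 to -28 was 1.03 in 80S 1 and 1.08 in 80S 2, so the direction turned with the window (a window chosen after the profiles were seen). The 3 neighbouring positions from -19 to -17 were the fullest of the window. They stood at 1.14 times upstream in 80S 1 (1.12 to 1.16) and 1.18 times in 80S 2 (1.16 to 1.21). These positions cross a codon border in the phase used above. In whole codons of that phase, -18 to -16 stood at 1.13 in 80S 1 and 1.12 in 80S 2, and -21 to -19 at 1.07 and 1.13. In both libraries -19 was the highest position of the window, with 4287 counts or 1.24 times upstream in 80S 1 and 3349 counts or 1.41 times in 80S 2. This height has to be set beside the repeat of 3 nt: upstream single positions already reached 1.40 times the mean in 80S 1 and 1.41 times in 80S 2, both at -52. The highest position at the stop codon was thus below the highest upstream position in 80S 1, and level with it in 80S 2, with 3349 and 3347 counts.

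The fall was steep in both libraries. Counts in 80S 1 were 3299 at -18, 4192 at -17, 4223 at -16, 2219 at -15, 1756 at -14, 669 at -13 and 878 at -12. In 80S 2 they were 3245 at -18, 1848 at -17, 2925 at -16, 2639 at -15, 817 at -14, 455 at -13 and 451 at -12. The loss thus spread over -15 to -13 in 80S 1 and lay mostly between -15 and -14 in 80S 2. From -13 on in 80S 1 and from -14 on in 80S 2, every position up to -1 lay below 50% of the upstream mean. From -15 to -12 the density was 0.401 times upstream in 80S 1 and 0.458 times in 80S 2.

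**Figure D1:**
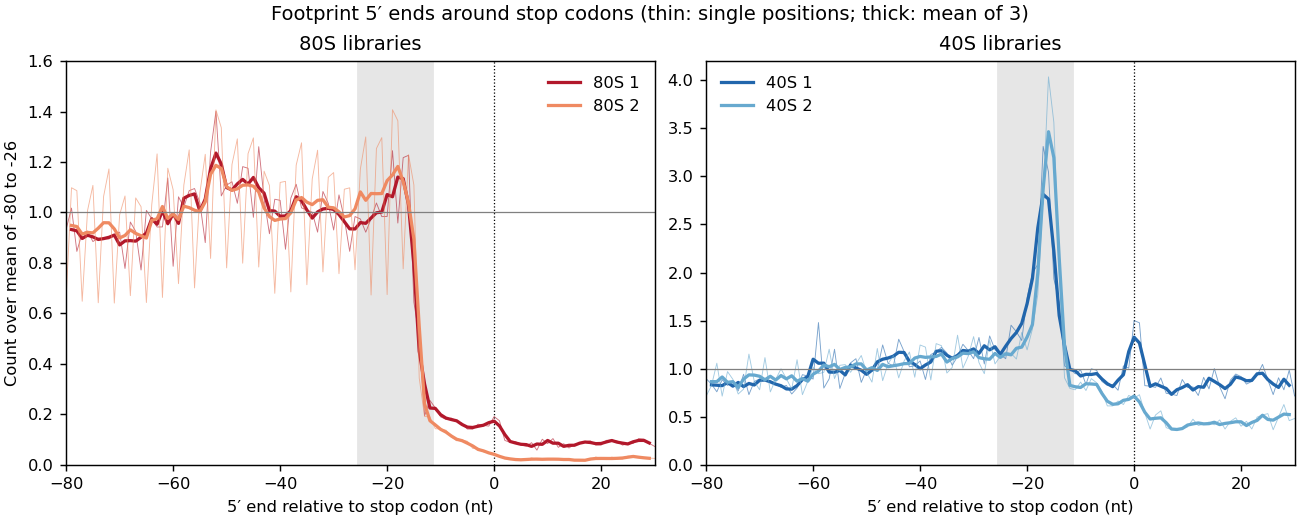
Counts of footprint 5′ ends at each position from -80 to +30 nt relative to the stop codon, divided by the library's mean at -80 to -26, for the 80S libraries (left) and the 40S libraries (right, with a longer vertical axis). Thin lines are single positions, thick lines means of 3 neighbouring positions, the grey band is -25 to -12 and the dotted line marks position 0. The 80S lines stay near 1 and drop after -16, with small rises at -52 and -18, while the 40S lines peak at 2.81 and 3.47 in the grey band.

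The small subunit libraries behaved differently in the same window. There 40S footprints stood above their upstream density as a whole and 80S footprints did not: the ratio at -25 to -12 was 0.866 and 0.927 in the 80S libraries, against 1.73 and 1.74 in the 40S libraries. The means were 0.897 ± 0.0431 in 80S and 1.74 ± 0.00966 in 40S (SD, n = 2 each). The difference of -0.84 was far larger than the spread between libraries, and was -0.86 for 80S 1 minus 40S 1 and -0.82 for 80S 2 minus 40S 2. An exact permutation of the 4 libraries, two-sided, gave p = 0.33, and this design allows no smaller p. With the window narrowed to -19 to -12 the difference was -1.28. With the window at -27 to -16, ahead of the fall, both fractions were above upstream. The ratios there were 1.03 and 1.08 in 80S and 1.78 and 1.64 in 40S, a difference of -0.65. The means of 3 positions were highest at -18 in both 80S libraries, at 1.14 and 1.18, and at -17 and -16 in 40S 1 and 40S 2, at 2.81 and 3.47.

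A second, wider rise lay further upstream in the 80S libraries. The mean of 3 positions was highest at -52 within -65 to -35 in both of them, at 1.24 times upstream in 80S 1 and 1.19 times in 80S 2. This lay 34 nt ahead of the rise at -18, a distance close to the most frequent footprint lengths at -53 to -51, which were 34 nt in 80S 1 and 32 nt in 80S 2. Those lengths were near the most frequent ones of the whole upstream window, 35 nt and 32 nt. Both high points were picked from the profiles, and whether the rises are linked was not tested. Against -80 to -56, the density at -53 to -51 was 1.31 times as high in 80S 1 (1.29 to 1.34) and 1.26 times in 80S 2 (1.23 to 1.29), and 1.14 times in 40S 1 and 1.16 times in 40S 2. In the 40S libraries the highest mean of 3 positions within that range was at -36, near its edge, and at -52 the mean was 1.01 in 40S 1 and 1.05 in 40S 2. The positions -53 to -51 were picked from the 80S profiles after these were seen, so that choice favours the direction of the difference from 40S. An exact two-sided permutation of the 4 libraries gave p = 0.33, which cannot decide a difference at positions picked this way.

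Past the stop codon few whole ribosomes were found. From 0 to +30 the 80S 1 library had 316 counts per position, against 3444 upstream, a ratio of 0.0919 (0.0900 to 0.0938). The 80S 2 library had 57.9, against 2380 upstream, a ratio of 0.0243 (0.0232 to 0.0255). The 80S mean of 0.0581 ± 0.0478 (SD, n = 2) rests on libraries that differ more than 1.5 times from it, and is 0.0243 without 80S 1 and 0.0919 without 80S 2. The 40S libraries had 0.882 and 0.465, a mean of 0.674 ± 0.295 (SD, n = 2), and the difference of -0.62 gave p = 0.33 in the exact permutation test. Between the fall and the stop codon, from -11 to -1, the ratios were 0.1699 in 80S 1 and 0.0951 in 80S 2, against 0.917 in 40S 1 and 0.741 in 40S 2. In 80S 1 the 5′ ends had a further small step at the stop codon itself, with 658 counts at 0, 600 at +1 and 332 at +2. The same positions held 100, 81 and 56 in 80S 2.

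Footprint length also differed across the stop codon. Ribosomes up to the fall had nearly the lengths of those upstream, and the few 5′ ends between the fall and the stop codon were short. In 80S 1 the median length was 34 nt at -25 to -12, against 35 nt upstream, and in 80S 2 it was 32 nt in both windows. From -11 to -1 the 80S 1 library had a median of 24 nt and the 80S 2 library one of 23 nt. This was 11 and 9 nt shorter than upstream, and in the 40S libraries the same step was 5 nt in both, at 29 nt and 25 nt. Past the stop codon the medians of 80S 1 and 80S 2 were 28 nt and 31 nt, which is 7 nt and 1 nt shorter than upstream. In 80S 1 the most frequent length there was 25 nt, against 35 nt upstream, and in 80S 2 it was 31 nt, against 32 nt upstream.

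**Figure D2:**
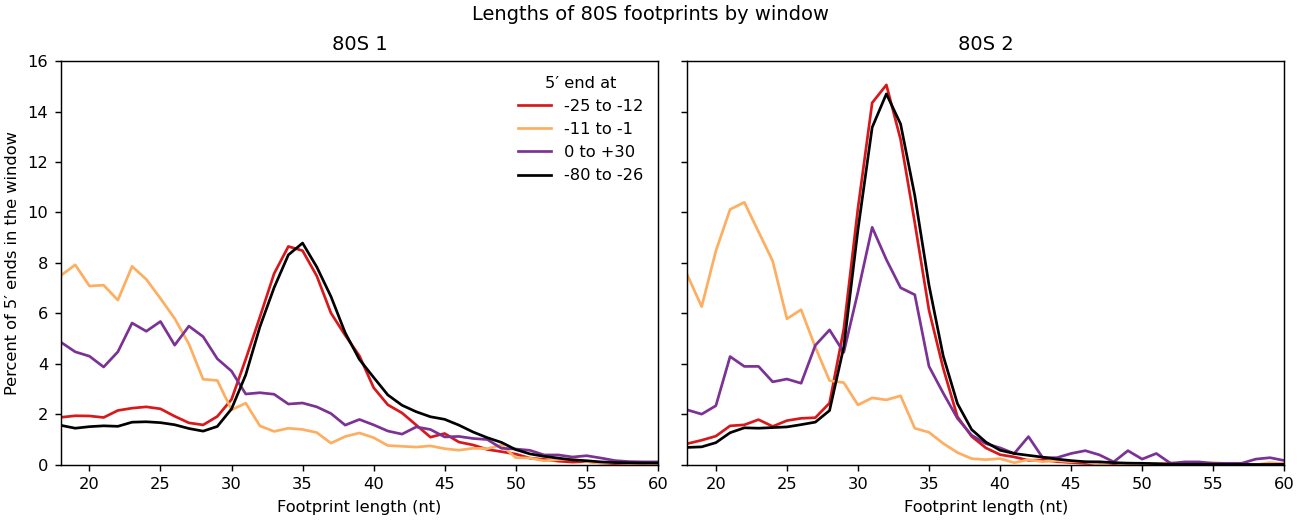
Percent of the 80S 5′ ends of each window (vertical axis) by footprint length in nt (horizontal axis, to 60 nt), with 80S 1 on the left and 80S 2 on the right. The red and black lines, for -25 to -12 and -80 to -26, nearly coincide, while the orange line for -11 to -1 has its median at 24 nt and 23 nt.

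Sorted into 3 length classes, short footprints made up more of the 5′ ends at and past the stop codon than upstream in both libraries. Footprints of 18 to 24 nt made up 14.3% of 80S 1 and 9.37% of 80S 2 at -25 to -12, against 10.97% and 7.92% upstream. At -11 to -1 they made up 51.4% (50.1 to 52.6%) and 60.1% (58.1 to 62.01%). Past the stop codon they made up 32.9% and 21.9%, a gain of 17.9 ± 5.62 percentage points over upstream (SD, n = 2, exact sign-flip permutation p = 0.5). Footprints above 35 nt went the other way near the stop codon, with 39.1% of 80S 1 and 9.19% of 80S 2 at -25 to -12, against 46.1% and 11.8% upstream. Their percent thus changed by -7.07 and -2.62 percentage points. With the window at -27 to -16, ahead of the fall, it changed by -4.20 and -1.72 points. The class of 25 to 35 nt held 46.6% and 81.4% at -25 to -12, against 42.9% and 80.3% upstream. Past the stop codon the libraries differed in these classes: the percent above 35 nt changed by -21.2 points in 80S 1 and by 3.11 points in 80S 2, and that of 25 to 35 nt by -0.71 and -17.1 points.

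Set against its own density upstream, each class stood at a different level. At -25 to -12 footprints of 18 to 24 nt stood at 1.13 in 80S 1 and 1.096 in 80S 2. Those of 25 to 35 nt stood at 0.941 in both, and those above 35 nt at 0.733 and 0.721. Over the fall itself, at -15 to -12, the short class was still at 1.01 and 1.12, the middle class at 0.481 and 0.431, and the long class at 0.182 and 0.197. The class ratios of both windows differed between the 2 libraries by less than they differed between classes. Ahead of the fall, at -27 to -16, the short class stood at 1.18 in 80S 1 and 1.09 in 80S 2. There the middle class was above upstream, at 1.09 and 1.11, and the long class stood at 0.938 and 0.928. The lower values of the middle and long classes at -25 to -12 thus include the fall. At -11 to -1 the short class still stood at 0.796 (0.767 to 0.825) in 80S 1 and 0.722 (0.683 to 0.762) in 80S 2. The middle class was down to 0.135 and 0.0429 and the long class to 0.0531 and 0.0298. Within this stretch the short class held up to the last position in 80S 1, with 0.731 at -1, and thinned out in 80S 2, with 0.355 at -1.

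At the stop codon the short class of 80S 1 stood at 0.863 at 0, 0.874 at +1 and 0.394 at +2. That of 40S 1 also stepped down, with 3.17 at 0, 2.41 at +1 and 1.41 at +2. At 0 to +2 the short class stood at 0.710 in 80S 1 and 0.166 in 80S 2, and at +3 to +30 at 0.229 and 0.0567. In the 40S libraries the short class was above its upstream density at -11 to -1, at 1.65 and 1.58, against 0.796 and 0.722 in the 80S libraries. This difference of -0.86 was larger than the spread between libraries (exact permutation p = 0.33).

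**Figure D3:**
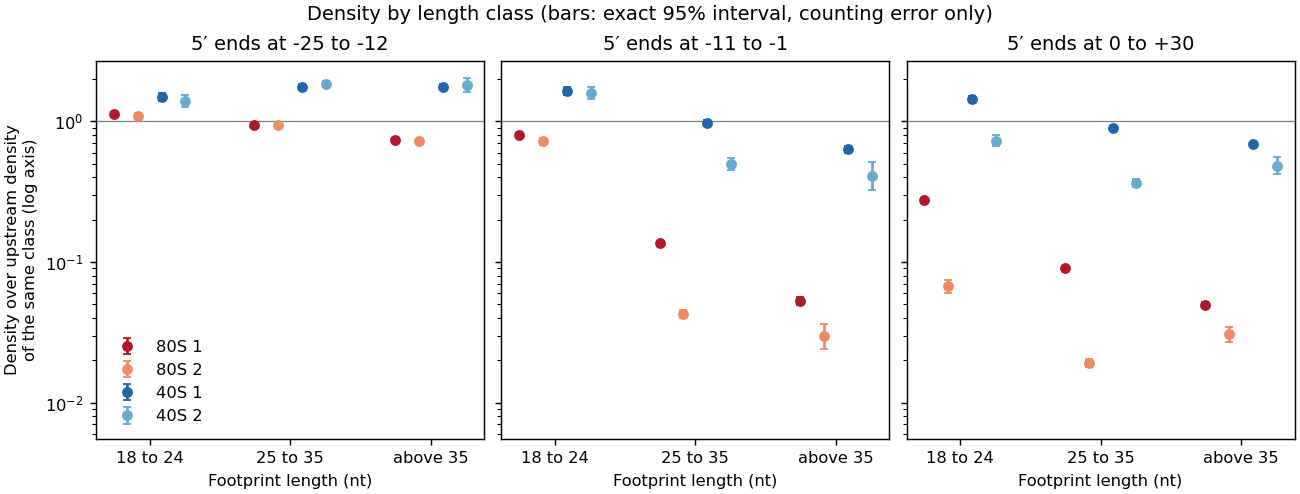
Density of 5′ ends divided by the upstream density of the same length class (log axis) for 3 windows and 3 length classes, with 80S libraries in red and orange and 40S libraries in blue. Bars are exact 95% intervals of counting error. At -11 to -1 the 80S points lie at 0.796 and 0.722 for 18 to 24 nt and below 0.15 for the longer classes, and 40S points lie above the 80S points in every class and window.

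Length by length, 2 edges were visible in the 80S libraries. Longer footprints all ended their run at nearly the same 5′ position, and shorter ones, in 80S 2, at nearly the same 3′ position. The fall was taken as the first position from which the mean of 3 positions stayed below 50% of that length's upstream mean, for lengths with at least 20 upstream counts per position. In 80S 2 the 11 lengths from 29 to 39 nt fell at -15 to -13. The 9 lengths from 20 to 28 nt fell in general later the shorter they were, from -10 at 28 nt to -1 at 20 nt, and the 3′ end at the fall, reckoned as the 5′ end plus the length minus 1, stayed at +17 to +18 for all 9. All 20 lengths from 31 to 50 nt in 80S 1 fell at -16 to -13. Lengths of 30, 29 and 28 nt fell at -12, -8 and -6, which placed their 3′ ends at +17, +20 and +21. Of the 10 lengths from 18 to 27 nt in 80S 1, 9 did not fall below 50% before the stop codon, and this library also had the higher density past it.

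Long footprints were in general sparser in the stop window than those near 30 nt. In 80S 1 the ratio of -25 to -12 over upstream was 1.01 at 30 nt, 0.836 at 35 nt, 0.764 at 40 nt and 0.596 at 45 nt. The decline was not even, with 0.850 at 38 nt, 0.896 at 39 nt and 0.611 at 50 nt. In 80S 2 it was 1.01 at 30 nt, 0.798 at 35 nt and 0.689 at 39 nt.

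Seen from the 3′ side, all classes of the 80S libraries had a right-hand edge. Derived 3′ ends of 18 to 24 nt footprints dropped below 50% of their mean at -25 to -5 from +23 on in 80S 1 and from +17 on in 80S 2. For 25 to 28 nt the edge was at +20 and +16, for 29 to 35 nt at +19 and +18, and for 36 to 50 nt at +23 and +21. In the 40S libraries the 29 to 35 nt class of 40S 2 had such an edge at +20. For 18 to 24 nt and 25 to 28 nt in 40S 2 the unbroken run below 50% held only +30, the last position, on 14 and 9 counts. The other 5 had no run below 50% that lasted to +30. Single positions dipped below it earlier, as at +26 for 29 to 35 nt in 40S 1, at 0.477.

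The 3′ ends also varied at the stop codon itself. At position 0 the 3′ ends of 18 to 24 nt footprints stood at 2.45 times their mean at -25 to -5 in 80S 1 and 1.27 times in 80S 2, and those of 25 to 28 nt at 2.15 and 1.30 times. In 80S 1 position 0 was the high point for 18 to 24, 25 to 28 and 29 to 35 nt. Footprints of 36 to 50 nt in 80S 1 stood higher at +18, at 1.16 against 1.13 at 0. In 80S 2 position 0 was the high point for 25 to 28 nt only. In that library 18 to 24 nt stood higher at +5, at 1.28, and 29 to 35 nt at +7, at 1.15 against 1.095 at 0. Its 36 to 50 nt class stood higher at -3, at 1.25 against 1.23 at 0. At +2 all 4 length classes were low, from 0.601 to 0.686 in 80S 1 and from 0.507 to 0.698 in 80S 2. In the 40S libraries 3′ ends of 18 to 24 nt stood at 2.79 times at position 0 in 40S 1, its high point, and at 2.09 times in 40S 2, which was higher at +15, at 2.29. A value above 1 at position 0 was thus not confined to whole ribosomes. Base composition at the stop codon was not tested.

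**Figure D4:**
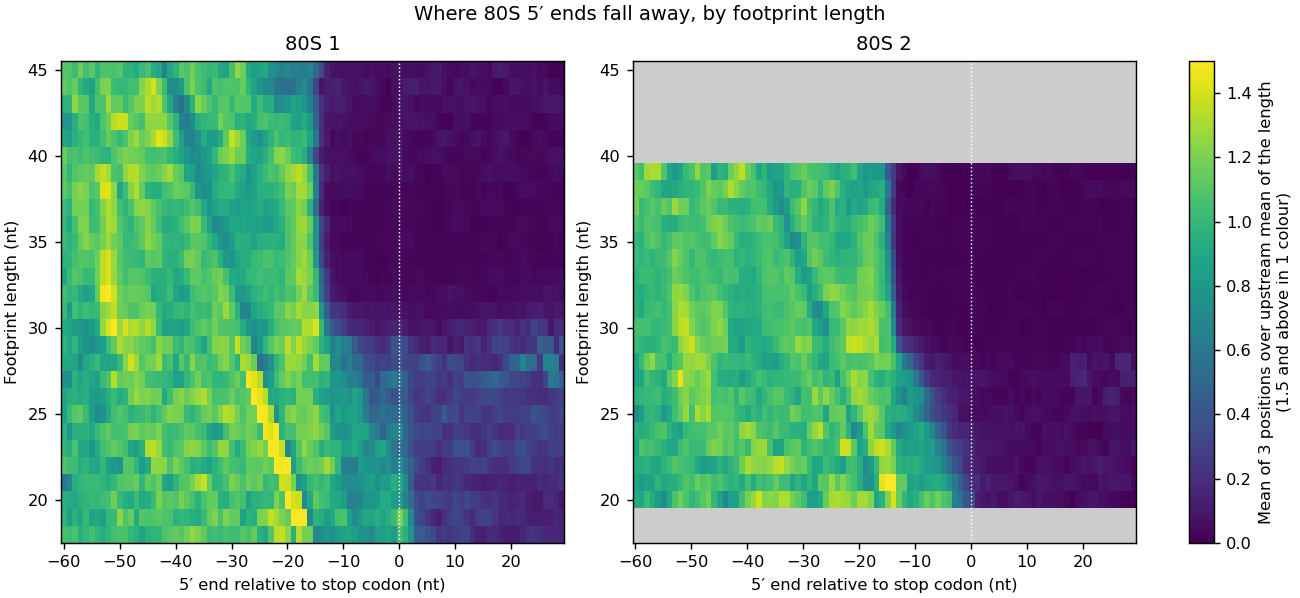
Density of 80S 5′ ends by position relative to the stop codon (horizontal, -60 to +29 nt) and footprint length (vertical, nt), as the mean of 3 positions over the upstream mean of that length, with 80S 1 on the left and 80S 2 on the right. Lengths with under 20 upstream counts per position are grey. The edge is vertical near -14 for longer footprints and slants to the right below 30 nt, and the thin slanted line follows 3′ ends at the stop codon.

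Reading frame was followed as the remainder of the 5′ position divided by 3, with each frame's mean count per position as a percent of the sum of all 3. Even spread gives 3 equal percents. In the 25 to 35 nt class whole ribosomes had nearly the upstream frame at -25 to -12 and a more even spread past the stop codon. In the other classes the libraries differed over the whole window past the stop codon. For 25 to 35 nt in 80S 2, frames 0, 1 and 2 held 40.1%, 20.7% and 39.2% at -25 to -12, against 40.9%, 21.05% and 38.1% upstream. In 80S 1 they held 29.9%, 32.2% and 37.9%, against 31.6%, 30.05% and 38.3% upstream. The upstream fullest frame therefore changed by -0.36 percentage points in 80S 1 and -0.79 in 80S 2, a mean of -0.58 ± 0.298 (SD, n = 2, exact sign-flip permutation p = 0.5). The libraries lay on opposite sides of 0 for -27 to -16, where the mean was 0.268, for -19 to -12, with a mean of -1.14, with the first length taken as 17 nt, with a mean of -0.14, and with the highest position of each window left out, with a mean of -0.75. The sign of this small change was therefore not settled. The counting error of these shares in the stop window was 0.352 and 0.311 percentage points.

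Past the stop codon the frames of 25 to 35 nt footprints held 32.1%, 37.4% and 30.6% in 80S 2, where 1135 5′ ends were counted. In 80S 1 they held 33.99%, 35.3% and 30.7% over 4140 5′ ends. The gap between the fullest and emptiest frame was 6.82 percentage points in 80S 2 past the stop codon, against 19.8 upstream, and 4.67 in 80S 1, against 8.26 upstream. In both libraries the fullest frame past the stop codon was frame 1, which upstream was the emptiest in this class. For 18 to 24 nt the gap past the stop codon was 7.53 percentage points in 80S 1, against 5.996 upstream, and 2.63 in 80S 2, against 4.83 upstream. Above 35 nt it was 2.199 in 80S 1, against 10.3 upstream, and 9.65 in 80S 2, against 7.88 upstream, where the 80S 2 value rests on 268 5′ ends. Over the whole window past the stop codon the libraries thus went opposite ways in both of these classes. For 18 to 24 nt in 80S 1 that window includes the step at the stop codon. This class stood at 0.863, 0.874 and 0.394 times upstream at 0, +1 and +2. The step put more 5′ ends in frames 0 and 1 than in frame 2, and the gap of 7.53 includes it. A gap without these positions was not computed, so the direction for 18 to 24 nt in 80S 1 was not settled.

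In the other length classes the frames were less uneven than in the middle class of 80S 2. Within 80S 1 the class above 35 nt was more uneven than the middle class. Its gap between the fullest and emptiest frame was 12.8 percentage points at -25 to -12 and 10.3 upstream, against 8.09 and 8.26. For 18 to 24 nt the fullest frame at -25 to -12 held 35.9% in 80S 1 and 38.4% in 80S 2, against 35.9% and 35.8% upstream. For footprints above 35 nt it held 38.8% and 39.4%, against 38.8% and 36.5% upstream. Between the fall and the stop codon the short class, which made up most of the 5′ ends there, held 34.9%, 34.01% and 31.1% in frames 0, 1 and 2 in 80S 1 and 37.6%, 33.9% and 28.5% in 80S 2.

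The fullest frame differed with footprint length, which the pooled class does not show. In 80S 2 a length of 29 nt put 62.9% of its upstream 5′ ends in frame 0 and a length of 30 nt 58.2%. All 8 lengths from 24 to 31 nt were fullest in frame 0, and all 7 from 32 to 38 nt in frame 2. In 80S 1 the 3 lengths from 28 to 30 nt were fullest in frame 0, with up to 45.2% at 30 nt. The 5 lengths from 31 to 35 nt were fullest in frame 2 and the 15 from 36 to 50 nt in frame 1. Each step from frame 0 to frame 2 to frame 1 is a 5′ end 1 nt further upstream. The 25 to 35 nt class thus joined lengths with different fullest frames in both libraries.

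**Figure D5:**
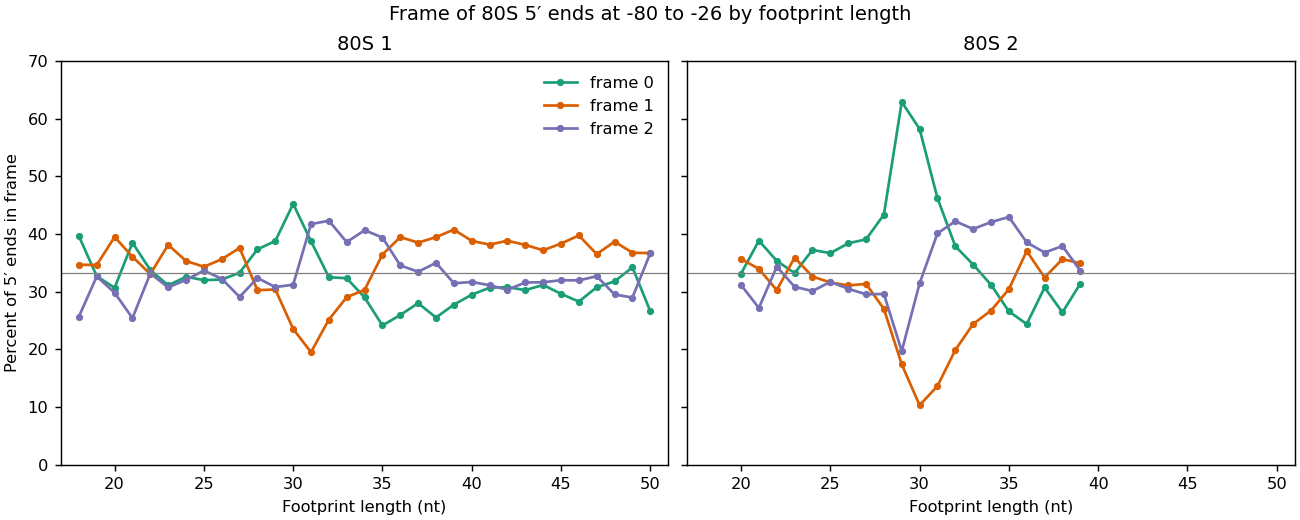
Percent of 80S 5′ ends at -80 to -26 in frames 0, 1 and 2 (vertical) by footprint length in nt (horizontal), with 80S 1 on the left and 80S 2 on the right. The grey line is an even spread. Frame 0 reaches 62.9% at 29 nt in 80S 2 and 45.2% at 30 nt in 80S 1, and longer footprints move to frame 2 and then, in 80S 1, to frame 1.

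The strength of the upstream frame was compared between the fractions by length class. The fullest upstream frame of 25 to 35 nt held 38.3% and 40.9% in the 80S libraries, against 33.96% and 40.1% in the 40S libraries. The difference of 2.54 percentage points was within the spread between libraries, with SDs of 1.804 in 80S and 4.37 in 40S (n = 2 each), with p = 0.667 in the exact permutation test, and it was -0.55 without 40S 1. For 18 to 24 nt the fullest frame held 35.9% and 35.8% in the 80S libraries, against 36.9% and 37.5% in the 40S libraries, and the groups did not overlap. This difference of -1.30 percentage points was larger than the SDs of 0.0917 in 80S and 0.441 in 40S (n = 2 each), with p = 0.33 in the exact permutation test. The counting error of these shares was 0.335 and 0.469 points in 80S, and 0.839 and 1.15 points in 40S, near the size of the difference. Each library's own fullest frame was taken and 40S had fewer 5′ ends, so the difference cannot be told apart from counting error. Above 35 nt the percents were 38.8% and 36.5% in 80S and 37.5% and 37.2% in 40S, which overlapped.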

How the data were processed

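Counts of footprint 5′ ends by position and length around stop codons, and around start codons for the check of frame, were used as deposited by the authors for both 80S and both 40S libraries. They are whole numbers that sum to different totals, with no sign of scaling. The labels name RNase I digestion and separation of fractions. Build GRCh38 and the tools TopHat2 2.1.0, Bowtie2 2.2.6, Bowtie 1.2.2 and CASAVA 1.8 are named, per the submitters' processing notes. What each did, and which mRNAs and multiply matching reads were counted, is not given in the sources used here. All 81 length columns have no header. With a first length of 18 nt, derived 3′ ends began at +3, as in the deposited per-gene mean fraction of 3′ ends in the authors' 40S tables (Pearson r across positions 0.995 and 0.996; 0.918 to 0.966 with 17 or 19 nt). This could be checked for 40S libraries only. No column was left unmapped (0).

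Density is the count per position, and windows are those given in the report: -25 to -12, -80 to -26, -11 to -1 and 0 to +30. Exact binomial (Clopper-Pearson) intervals at 95% came from scipy 1.17.1. Libraries were compared with exact permutation tests, whose smallest p is 0.33 for 2 against 2 and 0.5 for sign flips over 2. Across 30 measures compared between the fractions the smallest p was 0.33, or 0.526 after Benjamini-Hochberg adjustment. The computation was tested on simulated data. The windows, classes and members were chosen with earlier results of these data known. The falls of single lengths, the derived 3′ ends, the rise at -52, footprints of 56 to 98 nt and the codons within the stop window were taken up after the profiles were seen. By the rule for named items, single positions given are the highest of each window, the first from which all counts up to -1 lie below 50% of the upstream mean, and those from -19 to -12. Positions -1 and 0 to +2 were added after their values were seen, and no genes are named.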

Additional observations from a re-analysis of the deposited data

Results flagged for a closer look

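In 6 of 30 measures both 80S libraries lay on one side of the upstream value and both 40S libraries on the other. The percents of the fullest upstream frame are among the 30 but have no upstream value to lie beside, so they could not be among the 6. Several of the 6 rest on the same counts. Each of the 6 differences had an exact two-sided permutation p of 0.33, the lowest this design can give, so none passed a threshold. For all lengths, density at -25 to -12 over upstream was 0.866 and 0.927 in 80S, against 1.73 and 1.74 in 40S (difference -0.839). For 25 to 35 nt it stood at 0.941 in both 80S libraries, against 1.77 and 1.86 in 40S (difference -0.870). Above 35 nt it stood at 0.733 and 0.721 in 80S, against 1.77 and 1.81 in 40S (difference -1.06). At -11 to -1, 18 to 24 nt footprints stood at 0.796 and 0.722 in 80S, against 1.65 and 1.58 in 40S (difference -0.858). The percent of 18 to 24 nt footprints at -25 to -12 was 3.34 and 1.45 points above upstream in 80S, and -1.99 and -4.63 points from it in 40S, a difference of 5.70 points. The percent above 35 nt changed by -7.07 and -2.62 points in 80S, and by 1.05 and 0.534 points in 40S, a difference of -5.64 points. The window of -25 to -12 includes the fall of the 80S libraries. At -27 to -16, ahead of it, both fractions were above upstream for all lengths, at 1.03 and 1.08 in 80S and 1.78 and 1.64 in 40S. The same held for 25 to 35 nt, at 1.09 and 1.11 in 80S and 1.68 and 1.66 in 40S.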

How the results depend on the processing

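For the 10 results, 86 other settings chosen with earlier results known and 15 added after seeing the data were computed. Of these, 96 kept the direction, and no result passed a threshold under any. With the stop window at -27 to -16 (added), relative density turned to 1.05 (0.897 as reported) and the change of the fullest frame to 0.268 points (-0.575). That frame change was -1.14 points for -19 to -12, -0.141 and -0.874 with the first length taken as 17 and 19 nt, and -0.958 with -80 to -56 as upstream. With -27 to -16 the difference in median length was 0 nt (-0.5 nt), and it ranged from -1 to 0 nt when each 80S library was left out. The frame difference between fractions ranged from -0.554 to 5.63 points when each library was left out, and turned without 40S 1. Relative density past the stop codon was 0.0243 without 80S 1 and 0.0919 without 80S 2, and its difference between fractions ranged from -0.407 to -0.824. With +10 to +30 as the window past the stop codon, short footprints gained 12.7 points (17.9). With the stop window at -19 to -12 the difference in density between fractions was -1.28 (-0.839).

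Libraries of the same number deviated together across positions (r = 0.870). With only 2 pairs they are not shown to be paired samples, and same-numbered libraries share a read layout. With the replicate block the differences of -0.839, -0.616 and 2.54 keep their size, with an exact sign-flip permutation p of 0.5 for each, the smallest possible. Depth limits single lengths most: under 20 counts per position upstream no fall was sought, which leaves lengths from 18 to 50 nt in 80S 1 and from 20 to 39 nt in 80S 2.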

Other observations

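Past the stop codon the 80S and 40S libraries of a number had nearly the same counts, although their counts upstream were far apart. From 0 to +30 there were 316 counts per position in 80S 1 and 387 in 40S 1, a ratio of 0.818, while upstream the ratio was 7.85. In the number 2 libraries the counts past the stop codon were 57.9 in 80S 2 and 63.9 in 40S 2, a ratio of 0.907, against 17.3 upstream. At position 0 both number 1 libraries had 658 counts. Across the 31 positions past the stop codon the counts of 80S 1 and 40S 1 had a Pearson r of 0.827 and those of 80S 2 and 40S 2 of 0.454. It was 0.701 between 80S 1 and 40S 2, 0.581 between 80S 2 and 40S 1 and 0.634 between 80S 1 and 80S 2. Past the stop codon the likeness was thus not particular to libraries of the same number, unlike upstream. These values describe pooled positions that share the same mRNAs, and the files do not say how deeply each library was sequenced in all.

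Long footprints of 56 to 98 nt were sparse in the 80S libraries. At -55 to -41 there were 667 in 80S 1 and 87 in 80S 2, which per position was 1.25 times (1.13 to 1.38) and 1.77 times (1.29 to 2.42) the density at -80 to -56. The 40S libraries had 1.37 and 1.82 times, so the ratio was not higher in whole ribosomes (exact two-sided permutation p = 0.667).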
